A study of Mus musculus with 12 samples.

Results

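The genes described here are 8 transcripts used as marks of reserve stem cells or of the regenerating epithelium of the small intestine, together with the transcriptional effectors of the regenerative state. They are Bmi1, Hopx, Clu, Ly6a, Anxa1, Yap1, Wwtr1 and Tead1, chosen by name, and all 8 had a row in the table of raw counts for 34245 genes. RNA had been sequenced from stem cells (ISC) and enterocytes of the adult villus (AE), sorted from younger and aged mice, with 3 libraries in each of 4 groups and 12 in all. All groups were male C57BL/6 Lgr5-GFP mice, which carry EGFP with IRES and CreERT2 knocked into the Lgr5 locus, and no treatment is stated for any group. The younger cohort had a mean age of 7.6 months and the aged cohort of 27.1 months. ISC were the GFP-high cells of crypt suspensions, so the gate rests on activity of the Lgr5 promoter and leaves out crypt cells without it. AE were Epcam-high cells of villus suspensions that stained for neither CD45 nor CD31.

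In the crypt, Lgr5-positive stem cells divide constantly, while cells marked by Bmi1 or Hopx were described as a reserve that can restore the lineage after injury. After damage the epithelium passes through a fetal-like regenerative state, for which Clu, Ly6a (Sca-1) and Anxa1 are common marks. That state depends on YAP (Yap1) and TAZ (Wwtr1), co-activators held in the cytoplasm by the Hippo kinases, which act on DNA through TEAD factors such as TEAD1.

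Library totals ran from 11893817 to 14133772 counts in young ISC, from 14373053 to 26796461 in aged ISC and from 12728661 to 15473227 in aged AE. Young AE had 15189033 and 14695446 counts and a far deeper library of 110794420. Levels are given as CPM, a gene's counts relative to the TMM-scaled total of its library, and 3 counts, taken as the limit of detection, correspond to between 0.0359 and 0.327 CPM. These floors and the intervals on shares cover counting error only. The code at the head of a sample title and the group spelled in the rest of it were at odds in 8 of 12 titles, so each library was grouped by the name of its own column, and libraries are numbered by the order of columns. Lgr5 lay between 79.7 and 146 CPM in the 6 ISC libraries and between 0.550 and 4.72 CPM in the 6 AE libraries, and Vil1, Apoc3 and Sis were higher in AE. The summed CPM of 7 goblet markers was 1388 to 2233 in ISC and 28134 to 57055 in AE, and that of 10 enteroendocrine markers 250 to 754 in ISC and 2776 to 6939 in AE. The part of these cells in the differences between AE and ISC was not tested. In sorted bulk RNA, fewer cells that carry a transcript and less of it per cell cannot be told apart. The authors list 3 animal ages for each cohort and do not link them to libraries. An ISC and an AE library of the same age may therefore come from the same mouse. The main fits of AE over ISC treat all libraries as independent, and p-values measure the spread between these libraries.

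Sequence upstream of the start was read for the members that have an entry in the RefSeq promoter table of GRCm38.p6. The search used GGAATG, the core letters of the TEAD motif, on both strands of 300-base windows, and the match stands in capitals. It is shown for Yap1 and Wwtr1, which encode the partners of TEAD factors, and for the reserve mark Bmi1. The stretches are the 250 bases before each start at chr2:18676768-18677017 (plus strand), chr9:8004597-8004846 (minus strand) and chr3:57575911-57576160 (minus strand).
Bmi1: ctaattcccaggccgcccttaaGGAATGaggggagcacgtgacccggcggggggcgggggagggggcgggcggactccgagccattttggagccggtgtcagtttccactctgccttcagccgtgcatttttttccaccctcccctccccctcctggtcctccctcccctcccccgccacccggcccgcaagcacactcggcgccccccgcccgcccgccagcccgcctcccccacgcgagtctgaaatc
Yap1: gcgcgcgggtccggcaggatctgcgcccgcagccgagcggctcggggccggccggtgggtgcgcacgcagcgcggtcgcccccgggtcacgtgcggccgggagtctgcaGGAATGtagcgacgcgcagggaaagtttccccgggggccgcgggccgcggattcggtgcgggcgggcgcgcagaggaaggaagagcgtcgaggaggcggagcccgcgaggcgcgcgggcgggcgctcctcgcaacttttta
Wwtr1: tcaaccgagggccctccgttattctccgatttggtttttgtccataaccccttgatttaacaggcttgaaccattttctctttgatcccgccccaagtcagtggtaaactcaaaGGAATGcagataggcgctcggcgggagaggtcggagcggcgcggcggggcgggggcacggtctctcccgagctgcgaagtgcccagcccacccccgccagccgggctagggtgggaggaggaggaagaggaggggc
The match begins 228 bases before the start of Bmi1, 141 before that of Yap1 and 136 before that of Wwtr1. A further start of Wwtr1 lies downstream of this one and has the same match in its window, and Anxa1 has a match on the opposite strand 236 bases before its start. Neither of the 2 Hopx windows held the motif. GGAATG was thus in 4 of the 5 member genes with an entry, and in 14.7% of 32851 promoters or 16.6% of 27025 genes. Of the longer GGAATGT, which contains GGAATG, Yap1 had a match, as did 3.85% of promoters, and no member held the AP-1 motif TGANTCA, found in 7.81% of promoters. Clu, Ly6a and Tead1 are named only. A match is a description of letters and not evidence of binding.

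**Figure D1:**
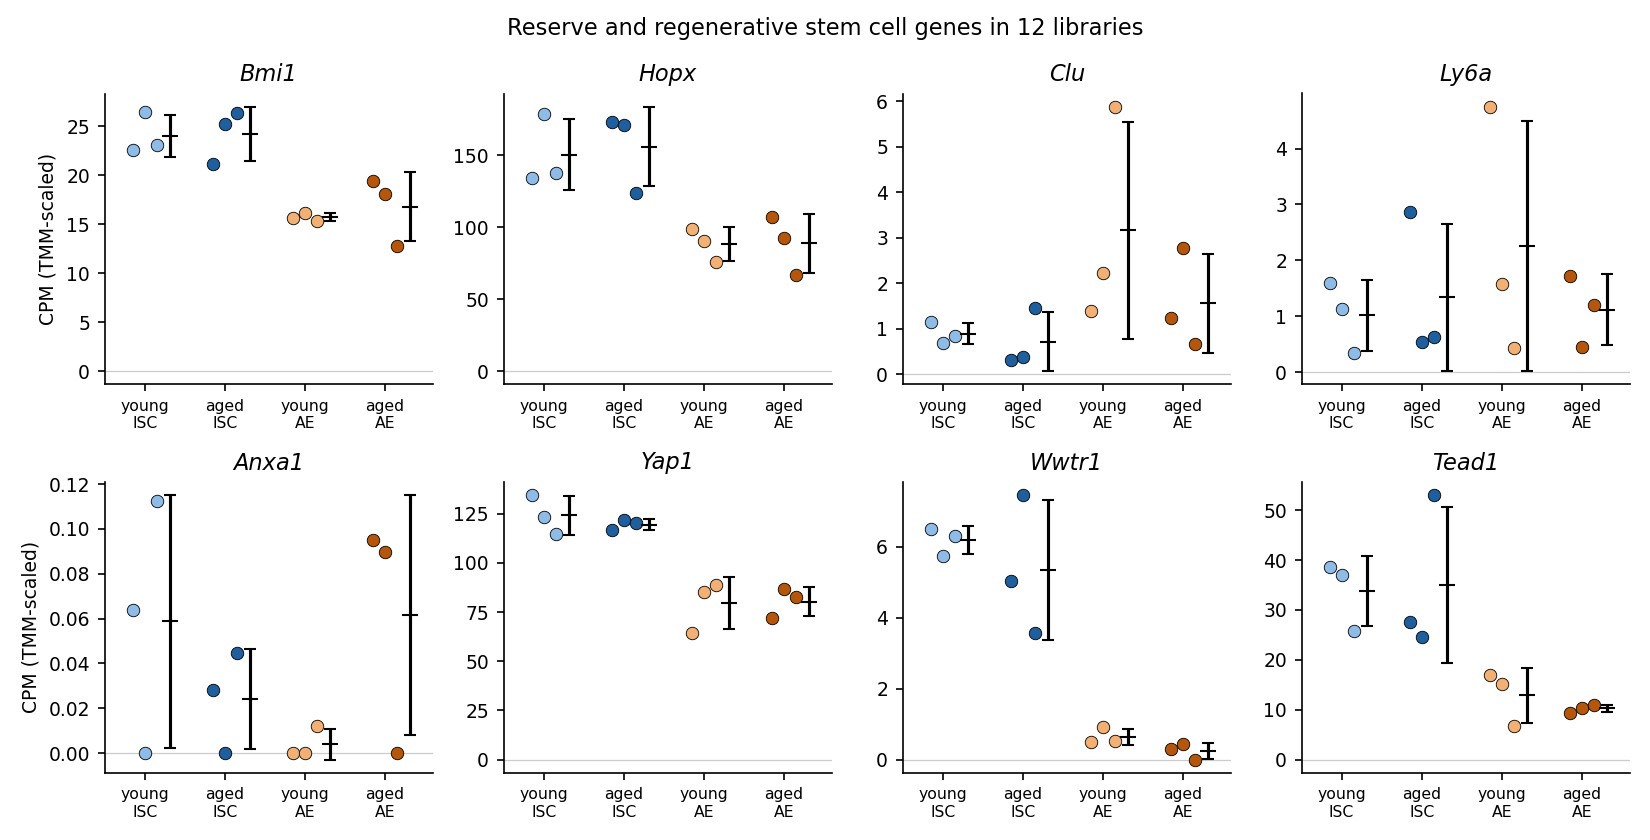
TMM-scaled CPM of the 8 genes (y axes, linear) in young ISC, aged ISC, young AE and aged AE (x axes). Points are libraries in column order, and the bar beside them is the mean with SD (n = 3). Bmi1, Hopx, Yap1, Wwtr1 and Tead1 lay lower in every AE library than in every ISC library, and Anxa1 stayed below 0.12 CPM throughout. The share of all genes separated in this way was not counted.

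Both reserve marks were measured well above the limit of detection in ISC and AE, and both were moderately lower in AE at each age. Bmi1, a subunit of Polycomb repressive complex 1 (ENSMUSG00000026739, chromosome 2, 18677018 to 18686629, GRCm38), had 22.6, 26.5 and 23.1 CPM in young ISC and 21.1, 25.3 and 26.3 CPM in aged ISC. In AE it had 15.6, 16.1 and 15.4 CPM in the young and 19.4, 18.1 and 12.8 CPM in the aged libraries. Every AE library was below every ISC library, and the ages overlapped in both cell types. The order of mean levels was aged ISC (24.2 CPM), young ISC (24.0), aged AE (16.8) and young AE (15.7), with a gap between ranges only at the step from ISC to AE. Bmi1 fell by 0.61 ± 0.17 (log2, SE) from ISC to AE in the young (edgeR quasi-likelihood test with Benjamini-Hochberg adjustment, adjusted p = 0.0143) and by 0.60 ± 0.20 in the aged (adjusted p = 0.0243). The call was lost in the young without ISC library 2 (log2 change -0.54, adjusted p = 0.0715), and in the aged without ISC library 2 (-0.57, 0.0567) or AE library 3 (-0.43, 0.0756).

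Hopx, a homeodomain protein that does not bind DNA itself (ENSMUSG00000059325, chromosome 5, 77086988 to 77115121), was the most abundant member per length of exon. Its counts were 134.6, 178.8 and 138.0 CPM in young ISC and 173.4, 171.0 and 124.2 CPM in aged ISC. In AE the values were 99.0, 90.2 and 75.9 CPM in the young and 107, 92.8 and 66.5 CPM in the aged libraries. As with Bmi1, no AE library reached an ISC library, and young and aged overlapped. Mean levels were 156 CPM in aged ISC, 151 in young ISC, 88.8 in aged AE and 88.4 in young AE, and the only neighbours without overlap were young ISC and aged AE. Hopx fell by 0.77 ± 0.18 (log2, SE) in young AE (edgeR, adjusted p = 0.00792) and by 0.89 ± 0.22 in aged AE (adjusted p = 0.00509), and it kept the call without any single library. The antisense gene Hopxos overlaps it and held 175 counts, or 0.560% of the Hopx total. Whether counting used strand is not stated.

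Both reserve marks remained in AE to an extent that Lgr5, on which the ISC gate rests, did not. The mean AE level was 65.4% of the ISC level for Bmi1 in the young and 69.2% in the aged, and 58.7% and 56.8% for Hopx. For Lgr5 the corresponding values were 2.47% and 0.810%, and for Olfm4, another crypt base gene, 3.32% and 0.997%. Yap1, which is not a reserve mark, stood at 64.0% and 67.2%, so such a level was not particular to the reserve marks. All these percentages depend on the TMM scaling. The 95% intervals of the log2 change in the aged were -1.05 to -0.15 for Bmi1, -1.37 to -0.40 for Hopx and -7.67 to -6.32 for Lgr5, and the difference between genes was not tested.

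Of the 3 regenerative marks, Clu and Ly6a were low in all groups and Anxa1 was at or below it. Clu, which encodes the secreted chaperone clusterin (ENSMUSG00000022037, chromosome 14, 65968483 to 65981547), had 1.15, 0.681 and 0.842 CPM in young ISC and 0.309, 0.378 and 1.47 CPM in aged ISC. AE held 1.39, 2.23 and 5.88 CPM in the young and 1.24, 2.78 and 0.654 CPM in the aged libraries. In the young all 3 AE libraries exceeded all 3 ISC libraries, while in the aged the ranges overlapped. The means fell in the order young AE (3.17 CPM), aged AE (1.56), young ISC (0.890) and aged ISC (0.717), with overlap at each step. Clu was higher in young AE by 1.87 ± 0.60 (log2, SE; edgeR, adjusted p = 0.0285), and its change in the aged was 1.08 ± 0.75 (adjusted p = 0.229). The call in the young did not survive leaving out ISC library 1, 2 or 3 or AE library 3, with adjusted p from 0.0579 to 0.181, and without AE library 3 the change was 0.97. In the aged it passed only without ISC library 3 (2.11, adjusted p = 0.0366), and the ages were not shown to differ, since the difference of age effects was -0.73 ± 1.01 (adjusted p = 1.000). Scaling by library totals alone, chosen after the data were seen, gave 1.14 in the young (adjusted p = 0.125).

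Ly6a, the GPI-anchored surface protein Sca-1 (ENSMUSG00000075602, chromosome 15, 74994877 to 74998031), was represented by 25, 20 and 6 counts in young ISC, with 102, 10 and 14 counts in aged ISC. As CPM these were 1.59, 1.14 and 0.337 in the young and 2.86, 0.540 and 0.622 in the aged. The AE libraries had 58, 19 and 37 counts (4.75, 1.57 and 0.442 CPM) in the young and 18, 5 and 11 (1.71, 0.448 and 1.20 CPM) in the aged. All 4 ranges overlapped, and the means were 2.25 CPM in young AE, 1.34 in aged ISC, 1.12 in aged AE and 1.02 in young ISC. The log2 change from ISC to AE was 1.09 ± 0.90 in the young (edgeR, adjusted p = 0.328) and -0.38 ± 0.74 in the aged (adjusted p = 0.667). Both turned in sign without the library of highest Ly6a, to -0.16 without young AE library 1 and to 0.86 without aged ISC library 1.

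The column codes carry a number that an ISC and an AE library of the same age share. Ranked by CPM, the 3 libraries of Ly6a stood in the same order of codes in ISC and in AE at both ages. That pattern was noticed after the values were seen. The same held for 1001 of 17377 genes (5.76%), and for 20.7% in the young and 22.2% in the aged taken singly. For Ly6a the order rests on few counts. Aged libraries 3 and 2 were parted by 14 against 10 counts in ISC and by 11 against 5 in AE. The 10 markers of T cells and intraepithelial lymphocytes had a summed level of 22.8, 9.60 and 10.4 CPM in young ISC, against 3.73, 4.91 and 3.07 CPM for aged ISC. The sum in AE was 57.0, 24.7 and 18.4 CPM in the young and 57.7, 30.9 and 20.6 in the aged, with at least 8 of 10 markers above 3 counts in each AE library. Libraries 1 of AE were thus highest in both, while in aged ISC the library of highest Ly6a was not that of the highest sum. In the aged ISC libraries only 6, 3 and 3 of the 10 markers were above 3 counts, so the order of those sums rests on few counts. The part of lymphocytes in the Ly6a values was not tested.

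Anxa1, the phospholipid-binding protein annexin A1 (ENSMUSG00000024659, chromosome 19, 20373428 to 20390944), had 1, 0 and 2 counts in young ISC, with 1, 0 and 1 counts in aged ISC. Young AE had 0, 0 and 1 counts and aged AE 1, 1 and 0. With 8 counts over 12 libraries the gene was not tested, and a difference between groups was not detectable at this depth.

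The 3 effectors of the regenerative state were measured in ISC well above the limit of detection, and all 3 were lower in AE, with the largest change in Wwtr1. Yap1 (ENSMUSG00000053110, chromosome 9, 7931999 to 8004596), whose upstream sequence is printed above, had 134.4, 123.4 and 114.7 CPM in young ISC and 116.5, 121.6 and 120.4 CPM in aged ISC. The AE values were 64.3, 85.0 and 88.9 CPM in the young and 72.0, 86.5 and 82.5 CPM in the aged libraries. All ISC libraries lay above all AE libraries, with young and aged intermixed. By mean the order was young ISC (124 CPM), aged ISC (119.5), aged AE (80.3) and young AE (79.4), and the ranges separated only between aged ISC and aged AE. Yap1 fell by 0.65 ± 0.17 (log2, SE) in young AE (edgeR, adjusted p = 0.0138) and by 0.65 ± 0.15 in aged AE (adjusted p = 0.00350), and the call held without any single library.

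Wwtr1, the gene of TAZ (ENSMUSG00000027803, chromosome 3, 57455649 to 57575910), had 6.50, 5.74 and 6.29 CPM in young ISC and 5.02, 7.45 and 3.55 CPM in aged ISC. In young AE it had 6, 11 and 44 counts, or 0.491, 0.910 and 0.526 CPM, and in aged AE 3, 5 and 0 counts, or 0.285, 0.448 and 0 CPM. ISC and AE were far apart, and the aged AE values lay just below the young AE values. Mean levels ran from young ISC (6.17 CPM) through aged ISC (5.34) and young AE (0.642) to aged AE (0.245), with overlap only between the ISC groups. Wwtr1 fell by 3.30 ± 0.38 (log2, SE) in young AE (edgeR, adjusted p = 3.45e-04) and by 4.41 ± 0.64 in aged AE (adjusted p = 1.89e-04). Without a single library the change in the aged was between -5.17, without AE library 2, and -3.89, without AE library 3, and all these fits kept the call.

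Tead1, the DNA-binding partner (ENSMUSG00000055320, chromosome 7, 112679318 to 112906807), had 38.6, 37.0 and 25.8 CPM in young ISC and 27.5, 24.6 and 53.0 CPM in aged ISC. Its AE values were 16.9, 15.1 and 6.65 CPM in the young and 9.42, 10.4 and 10.9 CPM in the aged libraries. The ISC range was wide and stayed above that of AE. The means ordered aged ISC (35.0 CPM), young ISC (33.8), young AE (12.9) and aged AE (10.2), with overlap within each cell type. Tead1 fell by 1.41 ± 0.35 (log2, SE) in young AE (edgeR, adjusted p = 0.0104) and by 1.84 ± 0.29 in aged AE (adjusted p = 3.20e-04), with the call kept without any single library.

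Of the 7 members tested, 1 was higher and 5 were lower in AE in the young, and 0 were higher and 5 lower in the aged. Over all genes tested, 27.7% were higher and 25.4% lower in the young, and 30.0% higher and 34.1% lower in the aged. The share of all genes whose AE and ISC ranges did not overlap was not counted. A gap between those ranges is therefore not shown to be particular to these members. The median log2 change of all genes was 0.15 in the young and -0.13 in the aged. TMM factors were above 1 in all ISC libraries and below 1 in all AE libraries, and library totals alone moved these medians to -0.55 and -0.91 and the calls to 2568 higher and 7137 lower in the young, against 4623 and 4241, and to 2711 and 8468 in the aged, against 4754 and 5409.

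**Figure D2:**
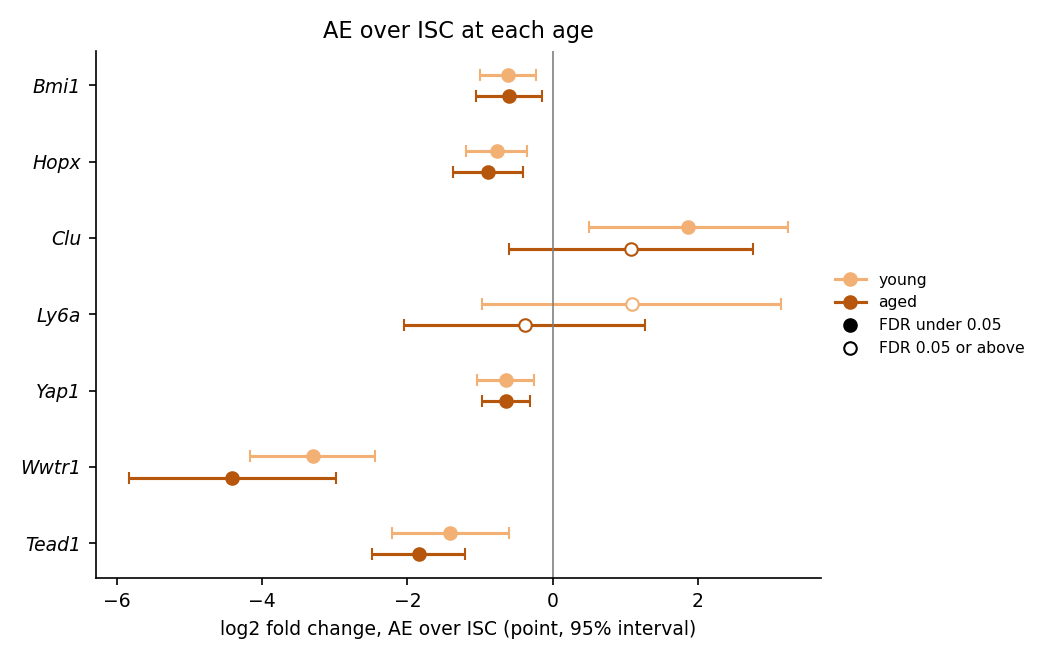
Log2 fold change of AE over ISC (x axis) for the 7 members tested (y axis) in young and aged libraries, 3 against 3 at each age. Bars are 95% intervals of the edgeR fit and filled points passed an FDR of 0.05; Bmi1, Hopx, Yap1, Wwtr1 and Tead1 passed as lower at both ages, and Clu as higher in the young.

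Levels of different genes were compared per length, as mean RPKM, which is CPM divided by the length of the merged exons in kilobases. In young ISC the order was Hopx (99.3 RPKM), Yap1 (13.4), Bmi1 (6.05), Tead1 (2.49), Wwtr1 (1.29), Ly6a (0.848) and Clu (0.259). In aged AE it was Hopx (58.6 RPKM), Yap1 (8.68), Bmi1 (4.22), Ly6a (0.930), Tead1 (0.755), Clu (0.453) and Wwtr1 (0.0512). In aged ISC Wwtr1 (1.12 RPKM) and Ly6a (1.11) were level, with Clu at 0.209, and in young AE Wwtr1 was at 0.134 RPKM, Clu at 0.922 and Ly6a at 1.87.

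The balance between the paralogs Yap1 and Wwtr1 shifted toward Yap1 in AE. Wwtr1 supplied 4.61%, 4.44% and 5.20% of the Yap1 and Wwtr1 counts in the young ISC libraries, with 4.13%, 5.77% and 2.87% for aged ISC. In AE its share was 0.759%, 1.06% and 0.588% in the young and 0.395%, 0.516% and 0% in the aged, where 0 of 756 counts had a 95% exact binomial upper bound of 0.487%. The lowest ISC library had an interval from 2.28% to 3.56%, above the upper bound of 1.89% of the highest AE library. Over both ages the mean share was 4.50% ± 0.992 (SD, n = 6) in ISC and 0.553% ± 0.355 (SD, n = 6) in AE (two-sided exact permutation test, p = 0.002165, the smallest that 6 against 6 can give, adjusted p = 0.00433 over 2 shares). That test pools the ages and ignores the codes that ISC and AE libraries share. An exact permutation test within the 6 pairs of one code, added after the data were seen, gave p = 0.03125, the smallest that 6 pairs can give, with an adjusted p of 0.03125 over 2 shares and ISC above AE in 6 of 6 pairs. Within each age all 3 ISC shares were above all 3 AE shares, where the same exact test gives p = 0.1, the smallest that 3 against 3 can reach.

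Among the 4 TEAD genes, Tead3 gave the largest share of summed RPKM in all 12 libraries, 44.8% to 53.9% in ISC and 71.6% to 86.9% in AE. The share of Tead1 was 23.6% ± 5.76 (SD, n = 6) in ISC and 15.0% ± 4.12 (SD, n = 6) in AE (two-sided exact permutation test, p = 0.00866, adjusted p = 0.00866 over 2 shares), with p = 0.1 within each age. The exact permutation test within the 6 pairs gave p = 0.03125 (adjusted p = 0.03125 over 2 shares), with ISC above AE in 6 of 6 pairs. Across ages the Tead1 shares overlapped. Aged ISC libraries 1 and 2 had 19.15% and 19.34%, below the 19.88% of young AE library 1. The lowest young ISC library had 19.92%, and the smallest difference within a pair was 2.19 points. Tead2 gave 16.1% to 34.6% in ISC and at most 3.24% in AE, with 0 counts in all 3 aged AE libraries.

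**Figure D3:**
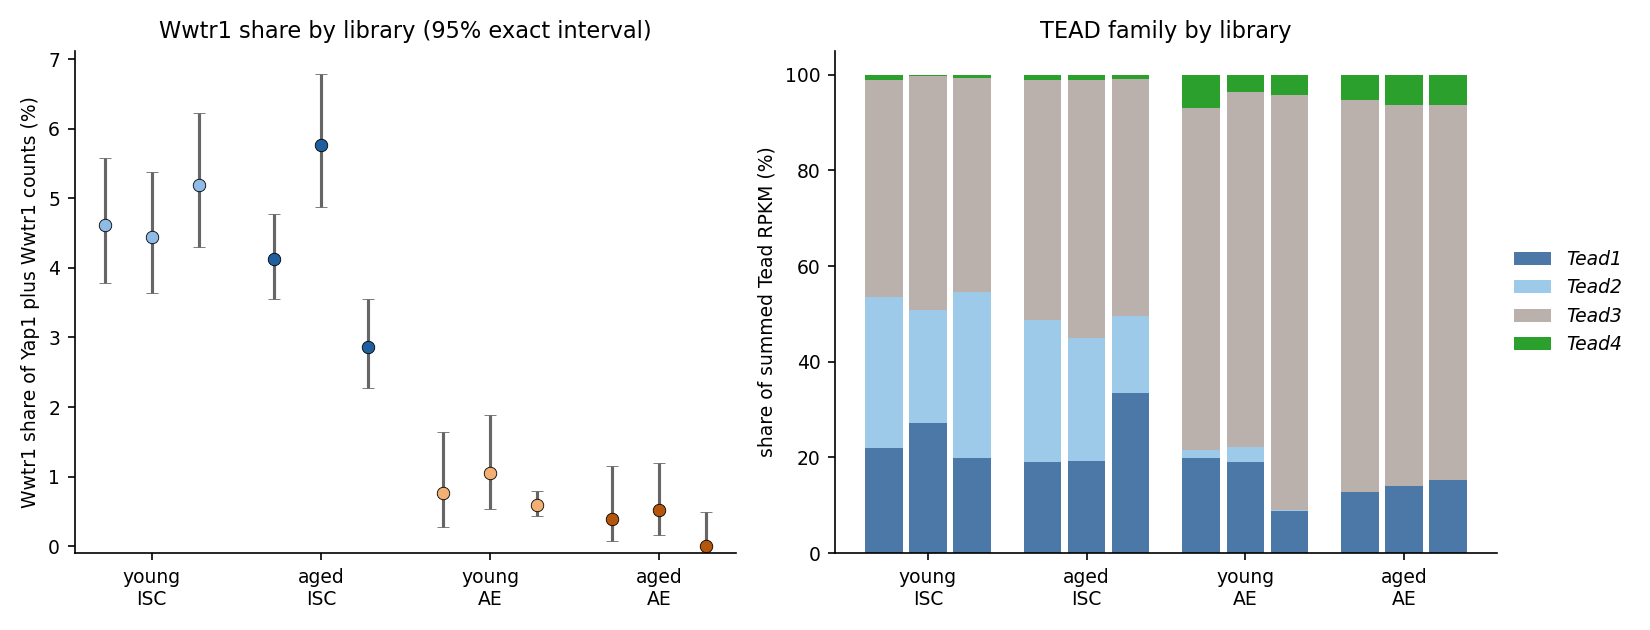
Left, share of Wwtr1 in the summed Yap1 and Wwtr1 counts (y axis, %) in each of 12 libraries by group, with 95% exact binomial intervals that cover counting error only. Right, share of each TEAD gene in the summed Tead RPKM (y axis, %), 1 bar per library. Wwtr1 was between 2.87% and 5.77% in ISC and between 0% and 1.06% in AE, and Tead3 took at least 71.6% in AE.

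With age, no member passed the test in either cell type. In ISC 0 of 7 members tested had an FDR under 0.05, against 0% of 15552 genes, and 0 of 7 had an unadjusted p under 0.05, against 4.47% of genes. The log2 changes of aged over young ISC ran from -0.31 ± 0.66 (SE) for Clu to 0.45 ± 0.75 for Ly6a. No member had ages that did not overlap in ISC, against 8.86% of genes. The 95% intervals were narrowest for Yap1 (-0.34 to 0.25), Bmi1 (-0.34 to 0.38) and Hopx (-0.36 to 0.48). The intervals of Wwtr1 (-0.87 to 0.46) and Tead1 (-0.62 to 0.74) were wider, and those of Clu (-1.82 to 1.20) and Ly6a (-1.26 to 2.15) were the widest of the 7. DESeq2 called 58 genes in ISC and 18 in AE, with 0 members among them.

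In AE 0 of 7 members passed, against 0% of 16265 genes, and 0 of 7 had an unadjusted p under 0.05, against 4.97%. Bmi1 (0.11, 95% interval -0.35 to 0.58), Hopx (0.03, -0.43 to 0.48) and Yap1 (0.03, -0.37 to 0.43) had the smallest log2 changes. The values for Tead1 (-0.30, -1.05 to 0.46), Ly6a (-0.93, -2.87 to 1.01) and Clu (-1.04, -2.57 to 0.50) were negative with wide intervals. Tead1 ran from -0.62 without young AE library 3, the deepest, to -0.05 without young AE library 1. With young AE library 3 left out, 2069 of 14848 genes had an unadjusted p under 0.05 in the edgeR test. For Wwtr1 all aged AE libraries were below all young ones, as for 10.9% of genes whose ages did not overlap in either direction, and its change was -1.29 ± 0.94 (SE; edgeR, adjusted p = 0.835). That value rests on 61 young counts and 8 aged counts, and it ran from -2.05 without aged AE library 2 to -0.75 without aged AE library 3. In 2 of 3 aged AE libraries the count was at or under 3. The stem cell genes Lgr5 (-1.27 ± 0.78) and Olfm4 (-1.78 ± 0.79) had log2 changes of the same sign in AE (edgeR, adjusted p = 0.833 for both), and young AE library 2, the highest AE library for Wwtr1 at 0.910 CPM, held Olfm4 at 7.47% of its ISC mean. The part of these levels in the value for Wwtr1 was not tested.

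The difference of age effects between AE and ISC, fitted over all 12 libraries, passed for 0 of 7 members, against 0.00575% of genes (1 of 17377), and 0 of 7 members had an unadjusted p under 0.05, against 4.36% of genes. The fit with the shared code as a replicate block called 21 genes in that comparison, and DESeq2 called 43, with 0 members in either. The widest interval was that of Ly6a, from -4.14 to 1.37, and the narrowest that of Yap1, from -0.39 to 0.53.

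**Figure D4:**
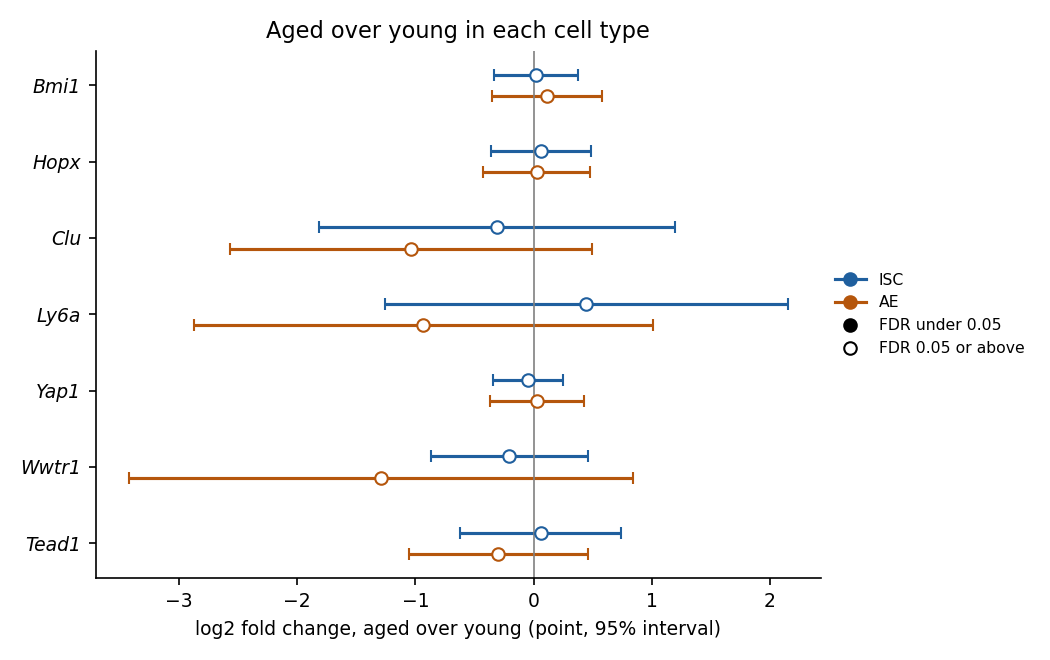
Log2 fold change of aged over young (x axis) for the 7 members tested (y axis) in ISC and AE, 3 against 3 libraries in each. Bars are 95% intervals of the edgeR fit; all points are open, since none passed an FDR of 0.05, and every interval includes 0.

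The other genes of each role were taken from lists, described by their counts and medians beside those of all genes above. Among 7 other reserve stem cell genes, the largest change was that of Mex3a, an RNA-binding protein, whose mean fell from 20.2 to 0.561 CPM between aged ISC and aged AE (log2 change -5.24 ± 0.28, SE). Msi1, an RNA-binding protein of progenitors, fell from 62.9 to 4.39 CPM (-3.91 ± 0.26) and Lrig1, a membrane inhibitor of ErbB signalling, from 255 to 23.2 CPM (-3.53 ± 0.20). Of 7 tested, 1 was higher (Prox1, a homeobox gene also known from enteroendocrine cells) and 5 were lower at each age, with medians of -2.80 in the young and -3.28 in the aged. The changes of Bmi1 and Hopx were thus smaller than the median of that list. Prox1 lost its call in both ages under library totals alone, and in the young also under upper-quartile scaling.

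Polycomb repressive complex 1, to which Bmi1 belongs, had 2 of 18 tested genes higher and 7 lower in young AE, and 2 higher and 10 lower in aged AE, with medians of -0.50 and -0.71. Cbx6 and Cbx7, which encode chromobox readers of methylated histone H3, fell by 3.71 ± 0.23 and 2.17 ± 0.18 (log2, SE) in aged AE, and Kdm2b, which recruits a variant complex to CpG islands, fell by 1.83 ± 0.23. The genes that were higher at both ages, Pcgf3 and Rybp, belong to variant complexes. Under library totals alone both lost their calls at both ages and Pcgf3 turned in sign, which left 0 higher and 13 lower in the young and 0 and 15 in the aged, with medians of -1.21 and -1.49. RLE scaling gave 4 higher and 9 lower in the aged, and upper-quartile scaling 2 and 9 in the young. The change of Bmi1 lay near the median of its complex.

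The other regenerative genes differed from the members in level and direction. Of 12 listed, 9 were tested, 5 were higher and 1 was lower in AE at each age, with medians of 3.24 in the young and 3.98 in the aged. S100a6, a calcium-binding protein, had 1.23 CPM in aged ISC and 167 CPM in aged AE (7.05 ± 0.32), Il33, an alarmin cytokine, 0.290 and 21.3 CPM (6.19 ± 0.39), and Cldn4, a tight junction claudin, 9.97 and 292 CPM (4.80 ± 0.25). Areg and Ereg, both ligands of the EGF receptor, were also higher in AE, and Cd44, a hyaluronan receptor of crypt cells, was lower. Spp1, which encodes the secreted protein osteopontin, had 1 count in young ISC, 6 in young AE and 0 in all 6 aged libraries. It was too low to be tested at either age.

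Annexins other than Anxa1 numbered 11 on the list, of which 10 could be tested, and at each age 7 rose in AE and 0 fell, with medians of 2.42 and 1.89. Anxa2 rose from 123 to 1409 CPM between aged ISC and aged AE (3.44 ± 0.29), Anxa3 from 0.645 to 6.53 CPM (3.24 ± 0.45) and Anxa5 from 2.82 to 17.4 CPM (2.54 ± 0.30). Under library totals alone 6 were higher and 1 lower at each age, and RLE scaling gave 8 higher in the aged. Of the 8 listed Ly6 genes besides Ly6a, only Ly6e was tested, and it fell from 448 to 80.5 CPM in the aged (-2.55 ± 0.28).

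Hippo kinases and scaffolds had no common direction. Of 18 tested, 5 were higher and 3 lower in young AE and 5 higher and 5 lower in aged AE, with medians of 0.23 and 0.14 that turned to -0.48 and -0.65 under library totals alone. Upper-quartile scaling gave 4 higher and 3 lower in the young and 3 and 5 in the aged. RLE scaling gave 6 higher and 4 lower in the aged. Lats2, a kinase that phosphorylates YAP, rose from 1.12 to 27.6 CPM in the aged (4.54 ± 0.35), while Ptpn14, a phosphatase that binds YAP, had 69 counts in aged ISC and 3 in aged AE (-3.28 ± 0.90). Amotl1, an angiomotin that holds YAP at junctions, had 86 counts in aged ISC and 0 in aged AE, at least 3.42-fold lower against 3 counts per library.

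Among the TEAD factors and VGLL cofactors, 0 of 5 tested were higher and 2 lower in young AE, and 1 of 4 higher and 3 lower in aged AE, with medians of -0.13 and -1.59. RLE scaling left 2 lower in the aged, since Tead3 lost its call. Tead2 fell from 11.8 CPM in aged ISC to 0 in aged AE, at least 40.2-fold lower against 3 counts per library. Vgll4, which competes with YAP for TEAD factors, fell from 98.6 to 14.9 CPM (-2.79 ± 0.22), and Tead4 rose from 0.385 to 1.17 CPM (1.51 ± 0.54), a call that library totals alone removed. Of the YAP and TEAD targets, a list that shares Amotl2, Lats2 and Ptpn14 with the Hippo genes, 9 of 17 tested were higher and 1 lower in young AE, and 10 of 16 were higher and 4 lower in aged AE, with medians of 1.00 and 1.37. Under library totals alone the counts were 8 and 2 in the young and 9 and 4 in the aged, with medians of 0.28 and 0.59. Upper-quartile scaling gave 9 and 2 in the young. Cyr61, a commonly used YAP target, was lower at both ages, with log2 changes of -2.26 ± 0.37 in the young and -2.89 ± 0.31 in the aged (SE). Nt5e, the ectonucleotidase CD73, rose from 0.785 to 88.2 CPM in the aged (6.71 ± 0.32). Arhgef17 had 61 counts in aged ISC and 0 in aged AE, at least 2.51-fold lower against 3 counts per library, and Tgfb2, a TGF-beta ligand, had 27 and 0 counts, at least 1.13-fold lower. Ctgf and Ankrd1, further targets in common use, had 0 counts in all 12 libraries, young and aged. By age, the edgeR test called 0 of 82 list genes tested in ISC and 0 of 80 in AE, with 5 in each at an unadjusted p under 0.05. DESeq2 called 0 in ISC and 1 in AE, Areg (edgeR log2 change 1.13, adjusted p = 0.833).

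**Figure D5:**
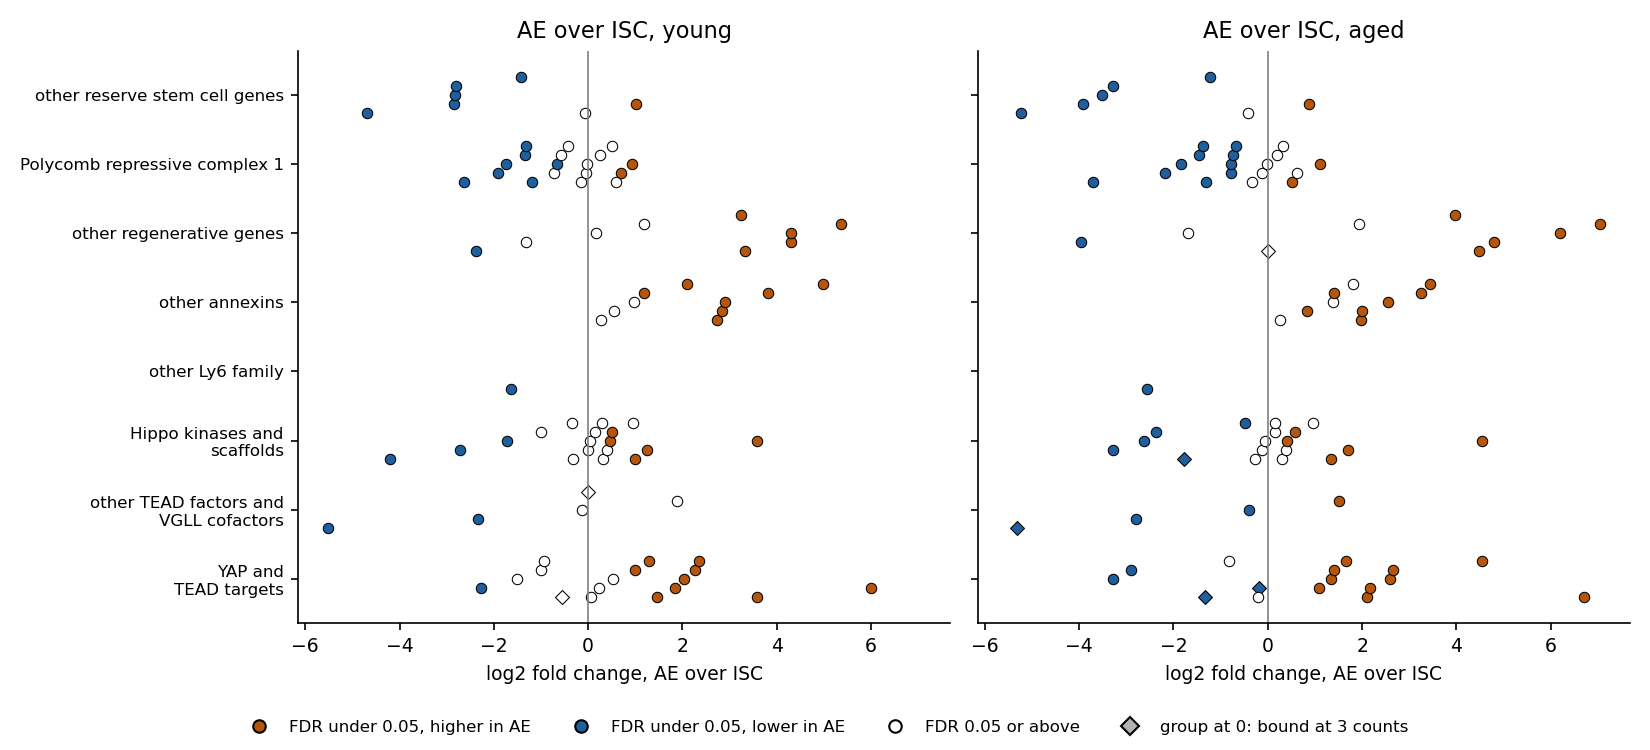
Log2 fold change of AE over ISC (x axes) for each tested gene of 8 lists (y axis) in young (left) and aged (right) libraries, 3 against 3 each. Filled points passed an FDR of 0.05 and diamonds mark genes at 0 in a whole group, drawn at the bound that 3 counts per library allow; 5 of 7 reserve genes were lower and 7 of 10 annexins higher at each age.

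The genes whose log2 CPM was most like that of a member over the 12 libraries, of 13238 compared, are given as a description, since all points share the division into ISC and AE. For Wwtr1 they were Mtap (Pearson r = 0.995), Nop9 (0.992) and Tmem55a (0.990), and for Tead1 they were AW011738 (0.986), 2410089E03Rik (0.985) and Camsap1 (0.981). Hopx was followed by Ccdc85b (0.984), Ndufaf7 (0.981) and Cers5 (0.975), Yap1 by Axin1 (0.976), Rbbp8 (0.974) and Polr3e (0.974), and Bmi1 by CT009754.1 (0.957), Bex1 (0.944) and Rfxap (0.941). Clu was nearest to Rptor (0.929), Gm43365 (0.927) and Rsc1a1 (0.917). Ly6a was nearest to Ifi47 (0.902), Gbp3 (0.898) and Iigp1 (0.886), a likeness that does not follow the cell types. Ifi47 had 38.9, 34.6 and 15.4 CPM in young ISC, 65.4, 27.2 and 27.6 in aged ISC, 93.0, 51.2 and 24.0 in young AE and 73.2, 34.5 and 61.5 in aged AE. Its libraries stood in the same order of codes as those of Ly6a in all 4 groups. Ifi47 was picked for its likeness to Ly6a in these same libraries, so the shared order is not separate evidence.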

How the data were processed

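Male mice averaging 33 weeks (young) or 118 weeks (aged) gave sorted ISC and AE, whose RNA was sequenced as 50 bp single-end reads from a directional poly(A) kit. The authors trimmed adaptors with Trim Galore (version 0.4.4), mapped reads to GRCm38 with HISAT2 (version 2.1.0) and counted uniquely mapped reads over merged exons of each gene in SeqMonk. The deposited counts are raw, for 34245 gene rows and 12 libraries, and 0 columns of per-sample values were left unused. A further deposited table, of log2 values and -log10 FDR for the genes the authors called, was not used. The annotation release is not stated; exon lengths for RPKM were taken from GENCODE vM21, where all 8 members have the same span.

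Each column was grouped by its own name, and replicate numbers are the order of columns. A gene entered a fit with 10 or more counts summed over its libraries. Scaling was by TMM and the test was the quasi-likelihood test of edgeR 4.0.16 (R 4.3.3), with Benjamini-Hochberg adjustment over all genes tested and an FDR threshold of 0.05. The edgeR fit was tested on simulated counts for aged over young in ISC, aged over young in AE and AE over ISC in the aged. The other steps were not tested in this way. Libraries with the same code deviated together from their group means (r across genes between 0.199 and 0.403 for the 6 pairs that share a code, and between -0.336 and 0.0901 for the 12 that do not), so an alternative fit used the code as replicate block. Whether a code is a mouse is not stated. Correlations and chi-square values per degree of freedom between libraries of the same group showed no library deposited more than once. Libraries of different groups were not compared in this way.

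The members and gene lists were chosen with earlier results of these data known. From each list, the 3 genes with the largest fitted log2 change of AE over ISC in the aged among those called were named. For genes at 0 counts in aged AE (Tead2, Amotl1, Arhgef17 and Tgfb2) that fitted change depends on the prior count, so their place in this order is not a measured rank. Areg, Ereg, Cd44, Prox1, Cyr61, Pcgf3, Rybp and the other genes at 0 counts were named after their values were seen. Likeness is the Pearson correlation of log2 CPM (prior count 2) among genes with at least 10 counts in 6 libraries. Alternatives were DESeq2 1.42.0, scaling by RLE or upper quartile, no filter beyond 1 count or filterByExpr, fitting the 4 groups together, the block, and leaving out each library. Library totals alone, thinning of the deepest library and the paired test of 2 shares were added after the data were seen.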

Additional observations from a re-analysis of the deposited data

How the results depend on the processing

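Of 258 values other than those with a library left out, 256 kept their direction and their side of the threshold. The exceptions were Clu in young AE over ISC, which library totals alone brought to 1.14 (adjusted p = 0.125), and Hopx by age in AE, at -0.0012 with the deepest library thinned. Counts of genes called over all genes moved more. DESeq2 called 58 by age in ISC, 18 in AE and 43 for the difference of age effects, against 0, 0 and 1. Without a filter beyond 1 count these were 1 in ISC and 2 in AE, and a fit on all 4 groups called 2 in ISC. With the replicate block, 21 genes were called for the difference of age effects, 8997 for AE over ISC in the young and 10513 in the aged, and the block changed no call of a member. Why these counts moved was not tested.

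Leaving out 1 library gave 0 to 1 genes called by age in each cell type and 0 to 3 for the difference, with 0 members in each. For AE over ISC it gave 7040 to 8595 genes in the young and 9039 to 10063 in the aged, with 4 to 6 members called at each age. No value that changed sign had passed the test. By age in ISC the log2 changes ran from -0.041 to 0.11 for Bmi1, -0.019 to 0.21 for Hopx, -1.36 to 0.079 for Clu, -0.79 to 0.90 for Ly6a, -0.099 to 0.010 for Yap1, -0.52 to 0.022 for Wwtr1 and -0.36 to 0.26 for Tead1. By age in AE they ran from -0.002 to 0.28 for Bmi1, -0.13 to 0.20 for Hopx, -1.47 to 0.26 for Ly6a and -0.10 to 0.13 for Yap1. For AE over ISC, Ly6a ran from -0.16 to 1.56 in the young and from -0.83 to 0.86 in the aged. The difference of age effects ran from -0.078 to 0.20 for Bmi1, -0.24 to 0.086 for Hopx, -1.54 to 0.32 for Clu, -0.16 to 0.12 for Yap1 and -0.72 to 0.064 for Tead1. Depth limits Clu, Ly6a, Wwtr1 in AE and above all Anxa1, and 3 libraries a group limit the comparisons by age.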

Other observations

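Iigp1, among the genes nearest to Ly6a, had 664 counts in aged ISC library 1 and 1 and 29 in the other aged ISC libraries. In young ISC it had 141, 36 and 0 counts, and in young AE 99, 24 and 0, so the young libraries of code 3 held none in either cell type. Aged AE held 21, 3 and 5 counts. The library order by code was the same in ISC and AE at both ages, as for Ly6a and Ifi47. For Gbp3, also among the nearest genes, the order was the same in the young and not in the aged. These genes were picked for their likeness to Ly6a in the same libraries, and the order was noticed after the values were seen.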
